A study of Homo sapiens with 6 samples.

Results

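Messenger RNA of 10 genes of the BEX and TCEAL family, BEX1, BEX2, BEX3, BEX4, BEX5, TCEAL1, TCEAL3, TCEAL4, TCEAL8 and TCEAL9, was followed through a knockout experiment in HEK-293T, an established line of human embryonic kidney origin expressing large T antigen of SV40. The 10 genes were taken by name from the 62348 identifiers in the count tables. The list was chosen by measured values of this same contrast, since BEX1 had no counts in wild-type (WT) libraries and clear counts in knockout libraries, so the changes of the 10 genes between the groups are described here without a test. The study holds 3 libraries labelled C17orf80 knockout (KO), from cells given a guide RNA against C17orf80, and 3 WT libraries, from cells given a non-targeting guide. Per the labels, the knockout line was made with CRISPR/Cas9 and puromycin was used to select monoclonal cells. Neither the number of clones nor separate cultures for the 3 libraries of a group are stated there. A difference between clones and an effect of the guide cannot be told apart, and a p-value here reflects spread among libraries alone, which may be technical.

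BEX and TCEAL proteins are small, largely disordered proteins encoded side by side on the long arm of the X chromosome in placental mammals. BEX proteins (brain expressed, X-linked) act as adaptors in signalling; BEX1 and BEX3 bind the p75 neurotrophin receptor or its signalling complex and bear on cell cycle exit, differentiation and apoptosis. TCEAL proteins are named for their likeness to the transcription elongation factor TFIIS (TCEA). BEX1 and BEX2 are known to be silenced with promoter methylation in malignant glioma; methylation was not measured here.

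The members span 1477 kb of the X chromosome. BEX5 (ENSG00000184515, chrX:102153712-102155977 on GRCh38) stands alone, 907 kb before BEX1 (ENSG00000133169, chrX:103062651-103064171). The other 9 genes lie within 568 kb, in the order BEX1, BEX4, TCEAL8, BEX2, TCEAL9, BEX3, TCEAL4, TCEAL3 and TCEAL1. Positions are those of RefSeq on GRCh38.p14. Of the 10 spans, only that of TCEAL9 overlaps another RefSeq gene, a noncoding RNA gene at its 5′ end, and no source used here gives the strand setting of the counting.

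The promoter windows of 5 genes, from 250 bases before to 50 bases after the RefSeq start (RefSeq, GRCh38.p14), are shown because these genes carry the contrasts described below. BEX1 had no counts in WT, BEX5 was nearly lost in the libraries labelled KO, TCEAL9 was lower there in each library, and BEX2, the closest relative of BEX1, kept its mean level. ARMCX2 belongs to a related family of the same region and had, like BEX1, no counts in WT. Capitals mark the E-box CACGTG, a site class of basic helix-loop-helix factors. The windows lie at chrX:103064122-103064421 (BEX1, minus strand), chrX:103310941-103311240 (BEX2, minus strand), chrX:102155928-102156227 (BEX5, minus strand), chrX:103356256-103356555 (TCEAL9, plus strand) and chrX:101659801-101660100 (ARMCX2, minus strand), and each is written 5′ to 3′ on the strand of its gene.
BEX1: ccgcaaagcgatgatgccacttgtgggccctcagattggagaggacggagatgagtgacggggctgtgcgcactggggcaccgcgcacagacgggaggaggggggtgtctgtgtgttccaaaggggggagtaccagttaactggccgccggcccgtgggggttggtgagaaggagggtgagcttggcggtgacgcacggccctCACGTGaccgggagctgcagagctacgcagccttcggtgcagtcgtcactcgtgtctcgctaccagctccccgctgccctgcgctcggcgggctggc
BEX2: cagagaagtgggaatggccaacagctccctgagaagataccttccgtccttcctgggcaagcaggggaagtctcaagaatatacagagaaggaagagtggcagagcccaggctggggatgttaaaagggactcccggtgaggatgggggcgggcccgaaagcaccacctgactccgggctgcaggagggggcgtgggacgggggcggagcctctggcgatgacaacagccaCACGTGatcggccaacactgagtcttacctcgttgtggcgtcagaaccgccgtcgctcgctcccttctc
BEX5: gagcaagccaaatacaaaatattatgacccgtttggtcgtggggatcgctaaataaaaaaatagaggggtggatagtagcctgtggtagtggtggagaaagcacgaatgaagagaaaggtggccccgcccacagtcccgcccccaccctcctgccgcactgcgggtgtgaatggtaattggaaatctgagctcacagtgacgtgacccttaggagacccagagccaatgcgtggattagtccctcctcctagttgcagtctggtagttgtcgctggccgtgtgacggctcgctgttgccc
TCEAL9: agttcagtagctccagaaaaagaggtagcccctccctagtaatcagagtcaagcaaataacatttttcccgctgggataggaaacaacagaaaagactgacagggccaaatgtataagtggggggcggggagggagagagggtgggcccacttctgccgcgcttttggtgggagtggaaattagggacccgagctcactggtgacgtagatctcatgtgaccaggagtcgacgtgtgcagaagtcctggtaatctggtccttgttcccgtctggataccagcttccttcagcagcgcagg
ARMCX2: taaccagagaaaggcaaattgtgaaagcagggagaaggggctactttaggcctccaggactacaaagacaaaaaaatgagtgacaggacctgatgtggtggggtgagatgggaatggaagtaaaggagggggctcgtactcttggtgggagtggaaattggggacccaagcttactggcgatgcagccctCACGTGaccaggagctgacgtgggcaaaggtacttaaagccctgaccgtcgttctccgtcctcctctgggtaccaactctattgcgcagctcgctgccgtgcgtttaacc

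A palindrome recurred in some of the family's promoters. TCACGTGA, which contains the E-box CACGTG and reads the same on both strands, was present in the windows of 4 of the 10 members, namely BEX1, TCEAL3, TCEAL4 and TCEAL8. The first base lay 48 bases before the start in BEX1, 81 in TCEAL3, 11 in TCEAL4 and 32 in TCEAL8. The TCEAL4 window was taken at a RefSeq start inside the gene's span, not at the first base of that span. The palindrome was also in the windows of TCEAL2, TCEAL5 and TCEAL6 and of ARMCX1, ARMCX2 and ARMCX6. These 10 windows, of 21 of the family and related genes in the table, compare with 283 of 27305 windows of all genes, or 1.04%, and with 19 of 949 windows of X-linked genes. The letters were chosen for description after the windows had been read, and a match is neither a bound site nor a cause. Holders of the palindrome included genes with no counts in any library and genes with steady counts, as the values below show.

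**Figure D1:**
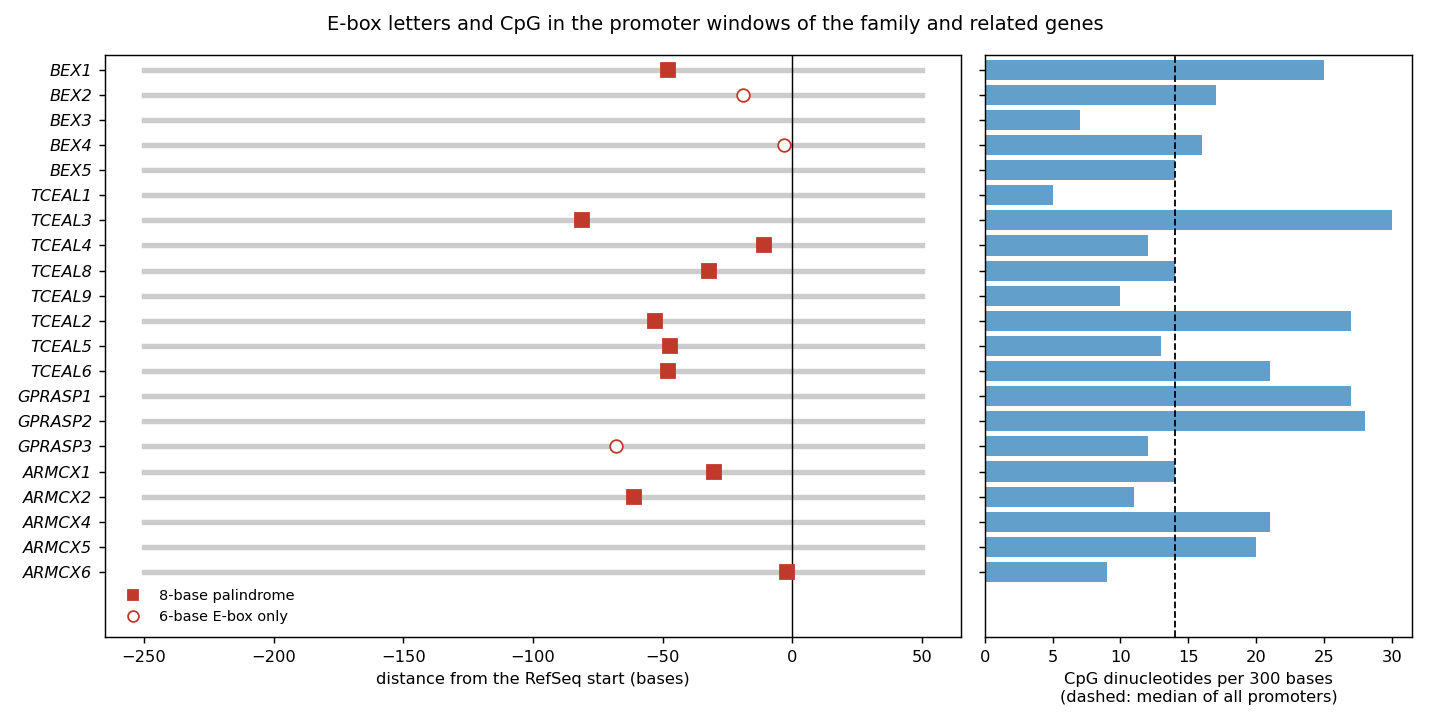
The left panel shows, for the promoter windows of the family and of the related GPRASP and ARMCX genes, the distance in bases from the RefSeq start to the 8-base palindrome (filled squares) or to the E-box alone (open circles). The right panel gives the number of CpG dinucleotides per 300 bases, with the median of all promoters, 14, as a dashed line; BEX1 has 25, BEX5 has 14 and TCEAL1 has 5.

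CpG content varied widely among the members, with a median of 14 CpG per window against a median of 14 over all 27305 windows. BEX1 held 25 CpG dinucleotides, TCEAL3 30, BEX2 17, BEX4 16, BEX5 and TCEAL8 14 each, TCEAL4 12, TCEAL9 10, BEX3 7 and TCEAL1 5. The TATA box letters TATAAA, searched on both strands, were in none of the 10 windows and in 12.0% of all windows. GGGCGG, the letters of a GC box, were in 7 of 10 windows and in 44.6% of all windows, on either strand. Among 210 pairs of windows, BEX2 and BEX4 were 76.6% identical over a global alignment, the second most alike pair after GPRASP1 and GPRASP2 (89.1%), against a median of 50.1%. The windows of BEX1 and BEX2 were 52.1% identical.

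Library depth was even, at 14982340 to 16278091 counts per library. Levels are given as counts and as CPM, counts over the TMM-scaled library total. Replicate 1 labelled KO stood apart: its Pearson's r across genes on log2 CPM was 0.932 and 0.945 with replicates 2 and 3 labelled KO, whose own r was 0.987, and the 3 pairs of WT libraries had r of 0.988. Its TMM factor was 0.850, against 1.03 and 1.03 in the other libraries labelled KO and 1.03 to 1.04 in WT. The label check goes against a loss of transcript. C17orf80 had 763, 699 and 698 counts in replicates 1 to 3 labelled KO, against 397, 451 and 476 counts in WT, with a log2 fold change of 0.78 ± 0.17 by edgeR (edgeR adjusted p = 0.0232). Counts summed along a gene say nothing of its reading frame, and the label is kept as the name of the group. The call was lost without any 1 WT library (edgeR adjusted p = 0.127, 0.117 and 0.0999 without replicates 1, 2 and 3) and without replicate 3 labelled KO (edgeR adjusted p = 0.0549). It was also lost with the replicate number as a block (edgeR adjusted p = 0.0829). The nephric marker SALL1 had 891, 679 and 676 counts in the libraries labelled KO and 607, 565 and 580 counts in WT, and PAX2 had 50, 114 and 99 counts in the libraries labelled KO and 145, 136 and 151 counts in WT; neither was called by edgeR. Among the nephric markers, WT1, a kidney transcription factor, was called higher and EYA1 lower by edgeR in the libraries labelled KO. The leukocyte markers PTPRC and CD3E, the endothelial marker CDH5 and the fibroblast marker COL1A2 were at 0 counts in all 6 libraries. Of 3 fibroblast markers LUM was called higher, the list summing to 3.09 to 5.75 CPM in the libraries labelled KO and 1.36 to 2.20 CPM in WT. The 4 epithelial markers summed to 112 to 185 CPM in the libraries labelled KO and 117 to 125 CPM in WT, with none called by edgeR.

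BEX1 was the member with counts only in the libraries labelled KO. It had 178, 704 and 531 counts in replicates 1 to 3 labelled KO, against 0, 0 and 0 counts in the WT libraries. In CPM these were 13.1, 42.6 and 31.8 in the libraries labelled KO, with a mean of 29.2 ± 14.9 (SD, n = 3), and 0 in WT. Each library labelled KO thus lay above every WT library, with replicate 1 the lowest of the 3. Against a limit of 3 counts over the 3 WT libraries together, BEX1 was at least 490.3-fold higher in the libraries labelled KO. The limit covers counting error only. In bulk RNA, more cells with BEX1 and more BEX1 RNA per cell cannot be told apart. Because BEX genes are typical of neurons, neural markers are given beside it. Of 5 neural markers INA was called higher and NEFL and GAP43 lower by edgeR, and the list summed to 223 to 259 CPM in the libraries labelled KO and 336 to 358 CPM in WT; its part in the BEX1 result was not tested.

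BEX5, the family's distant member, went the other way. It had 2, 2 and 1 counts in replicates 1 to 3 labelled KO, against 74, 93 and 63 counts in WT replicates 1 to 3. The mean level was 0.110 ± 0.0449 CPM in the libraries labelled KO and 4.72 ± 0.833 CPM in WT. All 3 libraries labelled KO fell below every WT library. With 5 counts in all in the libraries labelled KO against 230 in WT, BEX5 was 44.2-fold lower in the libraries labelled KO (95% counting interval 18.7 to 137). Both BEX1 and BEX5 passed the filter on low counts only through the group in which they were high, so that for them a difference was built into passing.

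BEX2, whose protein regulates apoptosis and cell cycle in tumour cells, did not follow BEX1. It had 211, 661 and 573 counts in replicates 1 to 3 labelled KO, against 457, 501 and 495 counts in WT replicates 1 to 3. The mean levels were 30.0 ± 12.8 CPM in the libraries labelled KO and 29.9 ± 0.341 CPM in WT, a log2 fold change of 0.0079 ± 0.32. The 3 WT libraries were nearly equal, whereas replicate 1 labelled KO lay below all of them and replicates 2 and 3 above. Without replicate 1 labelled KO the log2 fold change was 0.32. BEX1 and BEX2 are close copies, so a split of reads between them is uncertain in principle. In WT, 457 to 501 counts on BEX2 stood beside 0 on BEX1.

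BEX3, also called NADE, mediates cell death signalling by the p75 neurotrophin receptor. It had 1161, 3974 and 3623 counts in replicates 1 to 3 labelled KO, against 2971, 3364 and 3299 counts in WT replicates 1 to 3. Its mean was 181 ± 83.6 CPM in the libraries labelled KO and 198 ± 4.62 CPM in WT (log2 fold change -0.13 ± 0.35, and 0.22 without replicate 1 labelled KO). As for BEX2, replicate 1 labelled KO lay below WT and the other libraries labelled KO above it. BEX4, which binds tubulin, had 881, 1490 and 1593 counts in replicates 1 to 3 labelled KO, against 1387, 1394 and 1460 counts in WT. Its mean was 83.6 ± 16.3 CPM in the libraries labelled KO and 87.3 ± 4.06 CPM in WT (log2 fold change -0.062 ± 0.17). The groups of both genes overlapped.

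TCEAL9, first described as the WW-domain binding protein WBP5, had the narrowest spread within groups of the 10 members. It had 789, 1007 and 1034 counts in replicates 1 to 3 labelled KO, against 1259, 1393 and 1391 counts in WT replicates 1 to 3. In CPM the 3 libraries labelled KO lay at 58.2, 61.0 and 62.0, against 81.7, 82.5 and 85.0 in WT. The groups did not overlap, and replicate 1 labelled KO did not stand apart from the other 2. The mean was 60.4 ± 1.97 CPM in the libraries labelled KO and 83.1 ± 1.74 CPM in WT, a log2 fold change of -0.46 ± 0.12. This value stayed between -0.50 and -0.43 under the 12 other settings, of which -0.43 was that without replicate 1 labelled KO.

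TCEAL8, another small member with BEX2 between it and TCEAL9, had a log2 fold change of the other sign. It had 996, 1234 and 1451 counts in replicates 1 to 3 labelled KO, against 1066, 1117 and 1238 counts in WT replicates 1 to 3. The mean was 78.4 ± 7.48 CPM in the libraries labelled KO and 70.3 ± 4.85 CPM in WT (log2 fold change 0.16 ± 0.14), with overlap between the groups. The within-library ratio of TCEAL9 to TCEAL8 counts, which needs no scaling of libraries, was 0.792, 0.816 and 0.713 in the libraries labelled KO and 1.18, 1.25 and 1.12 in WT. Because TCEAL8 had the opposite sign, part of the gap in this ratio is that of TCEAL8.

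The 3 remaining TCEAL members lie together at the end of the cluster, and the groups overlapped for each of them. TCEAL4 had 535, 1097 and 946 counts in replicates 1 to 3 labelled KO, against 940, 968 and 938 counts in WT (log2 fold change -0.11 ± 0.20, and 0.081 without replicate 1 labelled KO). TCEAL1, a nuclear phosphoprotein that modulates promoter activity, had 255, 377 and 432 counts in the libraries labelled KO, against 346, 365 and 359 counts in WT (0.034 ± 0.16). TCEAL3 had the fewest counts of the 3, at 52, 72 and 70 in the libraries labelled KO, against 45, 78 and 33 in WT (0.37 ± 0.33). Its value was 0.74 without WT replicate 2 and 0.12 without WT replicate 3. TCEAL3, TCEAL5 and TCEAL6 are close copies, so reads may be split among them, although TCEAL5 and TCEAL6 had 0 counts in each library.

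**Figure D2:**
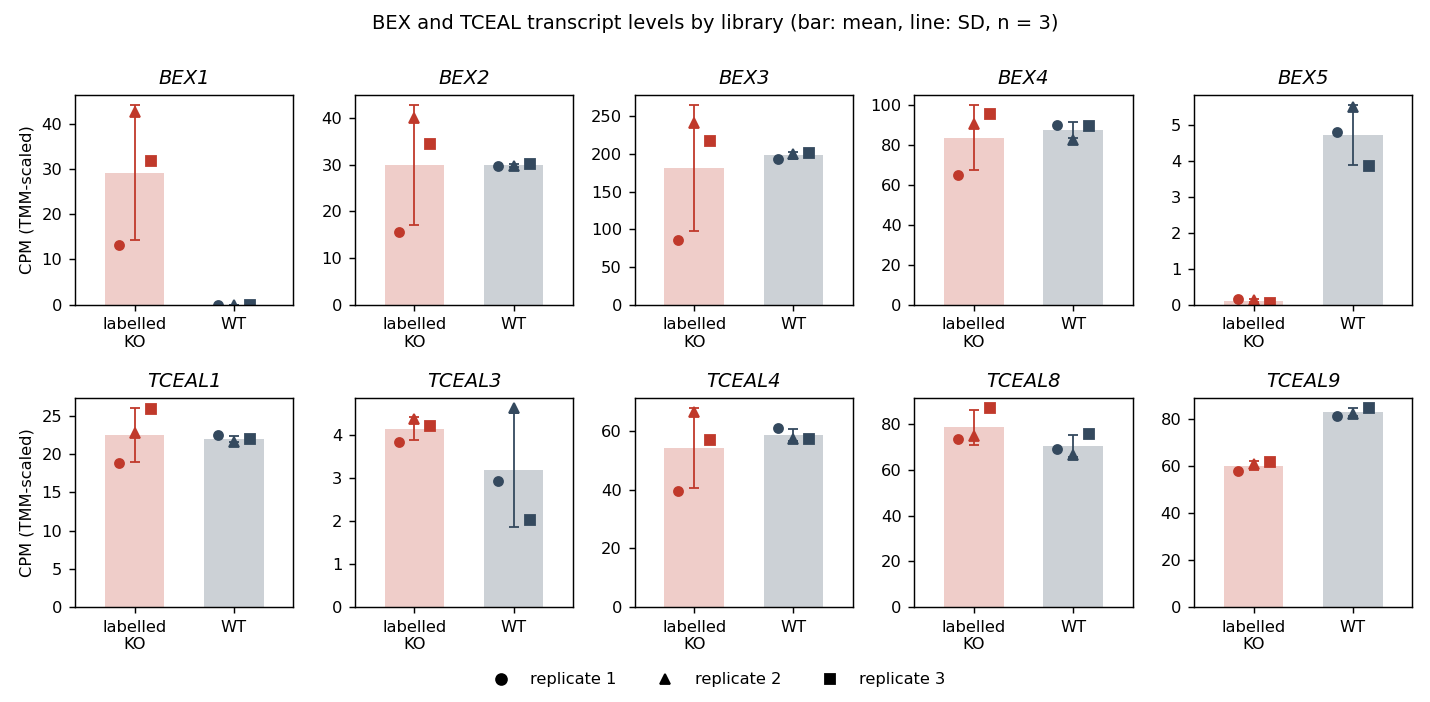
TMM-scaled CPM of each member in the 3 libraries labelled KO (red) and the 3 WT libraries (grey); bars are means, lines are SD and symbols mark the replicate. BEX1 is at 0 in WT, BEX5 is near 0 in the libraries labelled KO, TCEAL9 lies at 58.2 to 62.0 CPM in the libraries labelled KO and at 81.7 to 85.0 CPM in WT, and replicate 1 labelled KO is the lowest of all 6 libraries for BEX2, BEX3, BEX4, TCEAL1, TCEAL4 and TCEAL9.

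Of the 10 members, all of which were kept by the filter, 1 was higher and 2 lower in every library labelled KO than in every WT library, and the other 7 overlapped. Over all 17452 genes tested, the groups did not overlap in 47.6%, with 23.5% higher and 24.1% lower. The same 3 members, BEX1, BEX5 and TCEAL9, were those with an edgeR adjusted p under 0.05, a call made for 15.1% of all genes (8.64% higher, 6.50% lower). Without replicate 1 labelled KO, edgeR called 4 members higher and 2 lower, when 44.0% of all genes were called (22.3% higher, 21.7% lower). Because the list was drawn up from this contrast, and BEX1 and BEX5 passed the filter through 1 group only, these calls are no test of the members and nothing is read from them. The median log2 fold change of the members was -0.027, beside 0.0055 over all genes tested.

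In 4 of the 9 pairs of adjacent members both log2 fold changes had the same sign. The share was 64.9% of 12963 adjacent pairs of tested protein-coding genes on all chromosomes and 60.9% of 476 such pairs on X. The comparison is loose, since other tested genes lie between some members, such as RAB40A between BEX3 and TCEAL4. Signs of values near 0 are also not firm. BEX2 changed sign in 7 of 12 alternatives. Without replicate 1 labelled KO, BEX3, BEX4 and TCEAL4 stood above 0, at 0.22, 0.098 and 0.081. The pairs BEX1 and BEX4, BEX4 and TCEAL8, and TCEAL4 and TCEAL3 then shared a sign, and TCEAL9 and BEX3 no longer did. More pairs thus shared a sign without that library, and the shares of all adjacent pairs were not computed without it. The count of 4 of 9 is therefore not read as below those shares. The median absolute difference within a pair was 0.34 on the log2 scale for adjacent members, against 0.47 on all chromosomes and 0.58 on X, and it was smallest for BEX3 and TCEAL4, at 0.016. The 2 pairs with BEX1 differed most, but their size rests on fitted values against 0 counts. BEX1 and the next member toward TCEAL1, BEX4, start 152 kb apart and stood at no counts in WT and at a log2 fold change of -0.062. TCEAL9 lies between BEX2 and BEX3, with starts 47.2 kb and 19.8 kb away, and stood at -0.46 between 0.0079 and -0.13. From BEX4 to TCEAL1 the 8 members had log2 fold changes between -0.46 and 0.37.

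**Figure D3:**
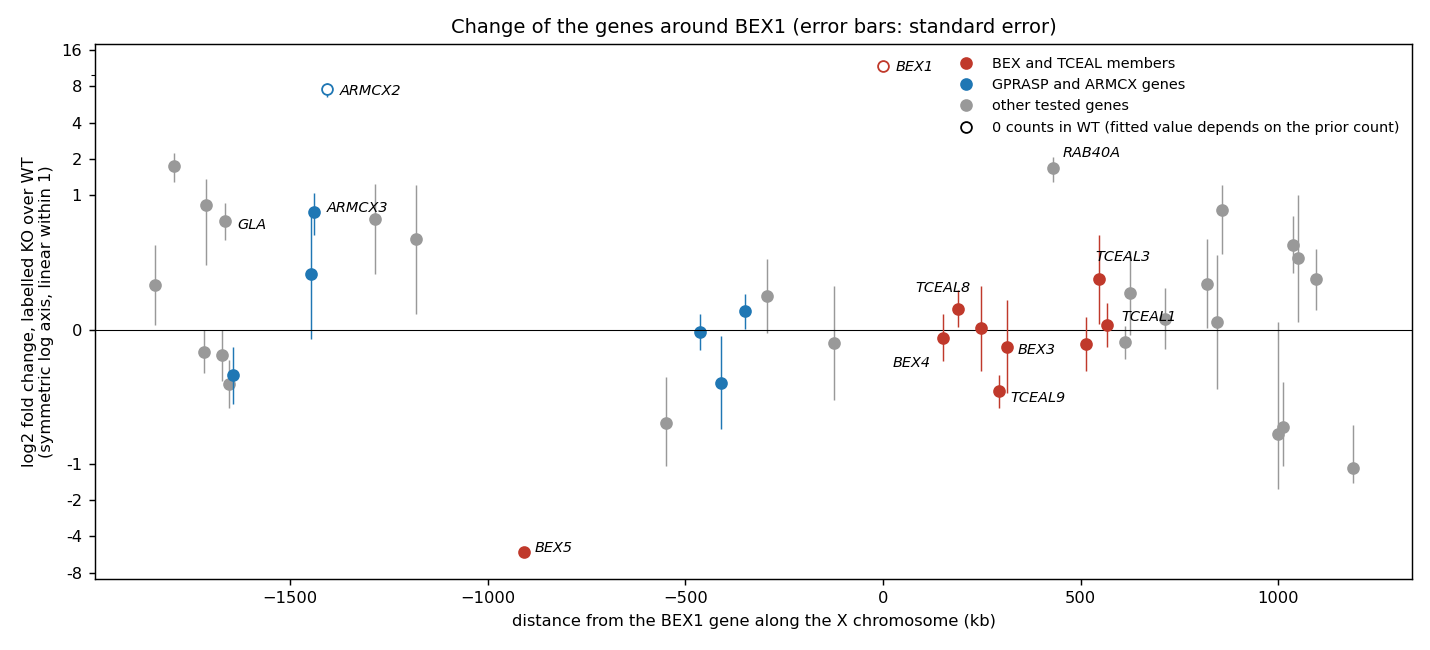
Log2 fold change of each tested gene around BEX1 against its distance from BEX1 in kb, with standard errors, on a symmetric log axis that is linear within 1; red points are the members, blue points the GPRASP and ARMCX genes and grey points the other genes. BEX1 and ARMCX2 (open points) have 0 counts in WT, so that their plotted height depends on the prior count; BEX5 lies at -5.36, and the 8 members beyond BEX1 lie between -0.46 and 0.37.

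Within the libraries labelled KO, the members split by how far replicate 1 fell below replicates 2 and 3. The log2 ratio of replicate 1 to the mean of the other 2 was -1.50 for BEX1, -1.42 for BEX3 and -1.26 for BEX2. It was -0.64 for TCEAL4, -0.52 for BEX4, -0.37 for TCEAL1, -0.16 for TCEAL3, -0.14 for TCEAL8 and -0.079 for TCEAL9; the 0.70 of BEX5 rests on 5 counts. BEX1 thus moved between the libraries labelled KO alongside BEX2 and BEX3, at 0.844, 1.07 and 0.927 BEX1 counts per BEX2 count and at 0.153, 0.177 and 0.147 per BEX3 count in replicates 1 to 3. The members' median of -0.44 compares with -0.025 over the 17131 tested genes with counts in each library labelled KO. It compares with -1.36 over 318 tested protein-coding genes with a RefSeq span of up to 2500 bases, of which 93.1% were lower in replicate 1, and with 0.0087 over 12525 longer ones. All members but TCEAL4 have spans under 2500 bases. The part of this library property in the spread of BEX1, BEX2, BEX3 and BEX4 was not tested.

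**Figure D4:**
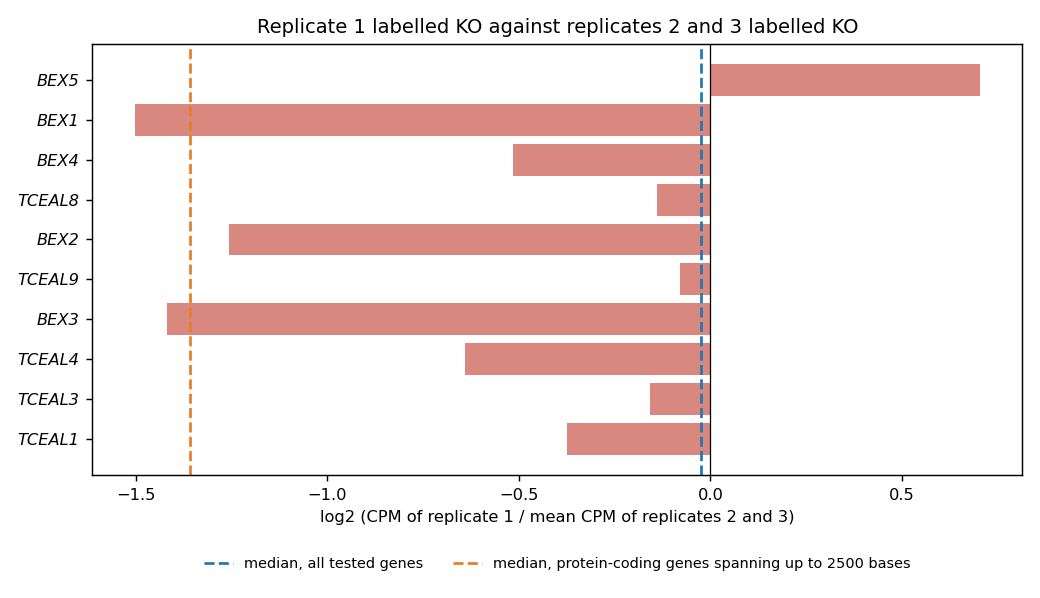
Log2 ratio of CPM in replicate 1 labelled KO to the mean of replicates 2 and 3 labelled KO for each member, in chromosome order. BEX1, BEX3 and BEX2 lie at -1.50, -1.42 and -1.26, near the median of short protein-coding genes (orange line, -1.36), and TCEAL9 and TCEAL8 lie close to that of all tested genes (blue line, -0.025).

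Summed over the 5 BEX members, the level was 179, 414 and 379 CPM in replicates 1 to 3 labelled KO and 317, 317 and 325 CPM in WT. Without BEX1 the sums were 166, 371 and 347 CPM in the libraries labelled KO, so replicates 2 and 3 stayed above WT and replicate 1 below. The 5 TCEAL members summed to 194, 229 and 236 CPM in the libraries labelled KO and to 237, 232 and 242 CPM in WT. The groups overlapped for both sums.

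**Figure D5:**
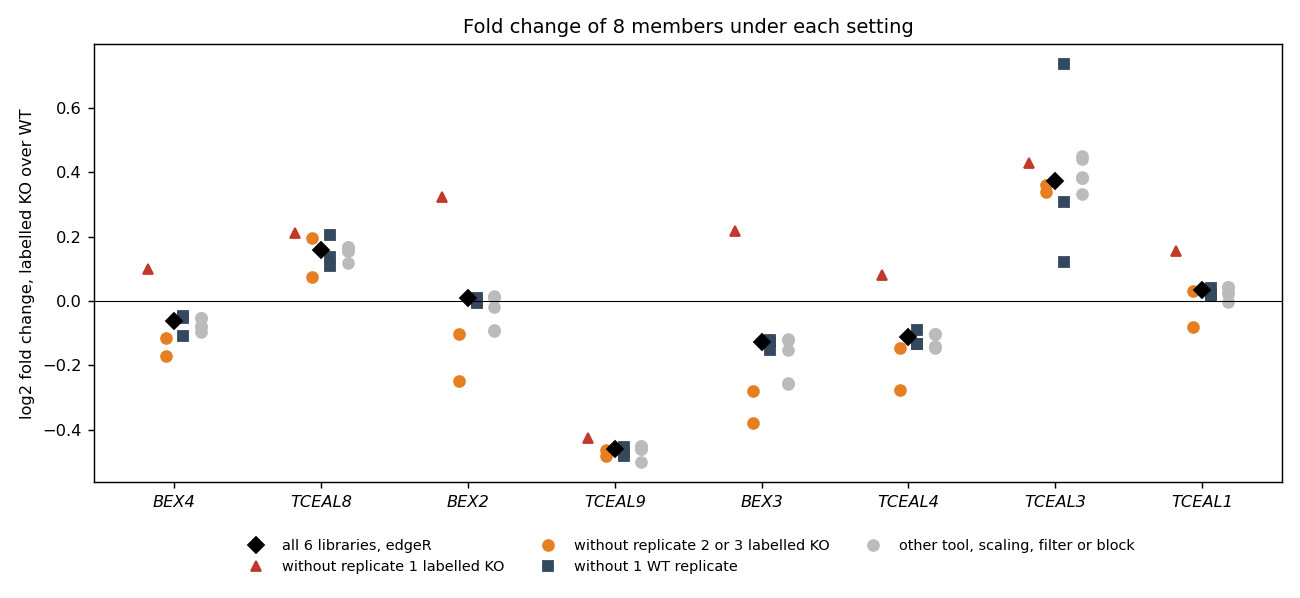
Log2 fold change of the 8 members other than BEX1 and BEX5 with all 6 libraries (black), without each library and under other tools, scalings, filters or the replicate block. Without replicate 1 labelled KO, BEX3, BEX4 and TCEAL4 move from below to above 0, while TCEAL9 stays between -0.50 and -0.43 throughout.

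The 4 TCEAL genes outside the list had few counts or none. TCEAL2, TCEAL5 and TCEAL6 had 0 counts in each of the 6 libraries. By counting error alone this allows up to 0.0642 CPM over the libraries labelled KO and 0.0617 CPM over WT. The tally of reads without a unique alignment was 0 in each library, so the handling of reads shared by close copies is not known. TCEAL7, which restrains MYC and NF-kappa-B activity, had 2, 4 and 1 counts in the libraries labelled KO and 1, 0 and 1 counts in WT, 3.64-fold in favour of the libraries labelled KO (95% counting interval 0.694 to 35.9). None of the 4 passed the filter, so none was tested. TCEAL5 lies between TCEAL8 and BEX2, and TCEAL7 between BEX2 and TCEAL9, while TCEAL2 and TCEAL6 lie near BEX5.

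The GPRASP and ARMCX genes, relatives by sequence in the same region, are not among the members. Their list too was chosen with earlier results of these data known, so its calls are no independent test. Of 9 genes 7 were tested by edgeR, of which 2 rose, 0 fell and 5 did not pass, with a median log2 fold change of 0.14; over all genes tested 15.1% were called, 8.64% higher. ARMCX2 had 20, 34 and 15 counts in replicates 1 to 3 labelled KO, against 0, 0 and 0 counts in WT, at least 23.9-fold higher against 3 counts over the group (edgeR adjusted p = 0.0108). It passed the filter on low counts only through the libraries labelled KO, so its call supports nothing further. ARMCX3, an armadillo-repeat protein of the mitochondrial outer membrane that takes part in mitochondrial transport in neurons, had 711, 848 and 824 counts in the libraries labelled KO, against 414, 391 and 546 counts in WT. Its mean was 51.1 ± 1.54 CPM in the libraries labelled KO and 27.8 ± 5.17 CPM in WT (log2 fold change 0.88 ± 0.17, edgeR adjusted p = 0.0165). In CPM both ARMCX2 and ARMCX3 were higher in 3 of 3 libraries labelled KO than in every WT library, as were 23.5% of all genes tested. ARMCX3 lost its call without WT replicate 1 or 2 (edgeR adjusted p = 0.102 and 0.0913) and without replicate 3 labelled KO (edgeR adjusted p = 0.0569). With the replicate number as a block, edgeR adjusted p was 0.0529 for ARMCX2 and 0.0613 for ARMCX3. At an unadjusted edgeR p under 0.05 the counts were also 2 and 0, as they were with adjusted p-values from DESeq2 and from limma-voom. Each of these counts includes ARMCX2.

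The other genes of this family did not pass. ARMCX6, beside ARMCX3, had 30, 154 and 146 counts in the libraries labelled KO and 67, 94 and 88 in WT (log2 fold change 0.41 ± 0.48, edgeR adjusted p = 0.577), and was called without replicate 1 labelled KO (0.83, edgeR adjusted p = 0.000986). ARMCX5, GPRASP1 and GPRASP2, receptor-sorting family genes between BEX5 and BEX1, had log2 fold changes of -0.016, -0.40 and 0.14, and ARMCX4 had -0.34; a readthrough gene overlaps ARMCX5 and GPRASP2, so their reads may be shared. ARMCX1 had 0, 0 and 4 counts in the libraries labelled KO and 0, 3 and 3 in WT. GPRASP3 had 0, 0 and 1 counts in the libraries labelled KO and 1, 3 and 3 in WT.

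Among 73 other identifiers within 1 Mb of the members, 25 were tested by edgeR, of which 2 rose and 0 fell. That is 8% higher and 0% lower, against 8.64% and 6.50% of all genes. An unadjusted edgeR p under 0.05 was reached by 5 higher and 1 lower genes. With adjusted p-values, 4 genes rose and 0 fell by DESeq2, and 1 rose and 0 fell by limma-voom. GLA, the lysosomal alpha-galactosidase A, had 4765, 7066 and 7461 counts in the libraries labelled KO, against 3725, 3898 and 3748 counts in WT (log2 fold change 0.81 ± 0.14, edgeR adjusted p = 0.0121). RAB40A, a small GTPase with a SOCS box that lies between BEX3 and TCEAL4, had 149, 81 and 74 counts in the libraries labelled KO, against 34, 38 and 30 counts in WT (1.68 ± 0.40, edgeR adjusted p = 0.0327). In CPM each was higher in 3 of 3 libraries labelled KO than in every WT library, as were 23.5% of all genes tested. GLA lies inside the span of a readthrough transcript and RAB40A overlaps a noncoding RNA gene and has a close copy, RAB40AL, so their reads may be shared. The GLA call was lost without any 1 WT library (edgeR adjusted p from 0.0828 to 0.0900) and without replicate 3 labelled KO (edgeR adjusted p = 0.0533), and the RAB40A call without any 1 WT library (edgeR adjusted p from 0.117 to 0.138). Without replicate 1 labelled KO, 5 of the 25 were higher and 1 lower by edgeR, when 44.0% of all genes were called.

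Over the X chromosome, 48 genes rose and 38 fell of 557 tested by edgeR, the members left out. That is 8.62% and 6.82%, near the 8.64% and 6.50% of all genes. The largest rises were of SLC7A3, a cationic amino acid transporter gene (at least 254-fold), PNPLA4, a lipase gene, with 310, 391 and 380 counts in the libraries labelled KO against 0, 1 and 2 in WT, and TMEM47, a membrane protein gene of cell junctions, with 782, 605 and 678 counts in the libraries labelled KO against 5, 4 and 0 in WT. The largest falls were of the translation termination factor gene GSPT2 and the cancer-testis gene CSAG3, each with 0 counts in the libraries labelled KO, and of MAGEA3, with 0, 1 and 0 counts in the libraries labelled KO against 1283, 1339 and 1391 in WT. CSAG3 and MAGEA3 have near-identical copies, so their counts are uncertain. All 6 passed the filter only through the group in which they were high. The numbers of X-linked genes called were 35, 38 and 37 without WT replicates 1, 2 and 3. They were 257, 98 and 54 without replicates 1, 2 and 3 labelled KO. Of the 573 tested without replicate 1 labelled KO, 257 were called, when 44.0% of all genes were called.

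Of 17 genes of the p75 neurotrophin receptor pathway, in which BEX1 and BEX3 take part, 12 were tested by edgeR, 1 rose and 1 fell, or 16.7% against 15.1% of all genes. BDNF, a neurotrophin, had 41, 22 and 24 counts in the libraries labelled KO, against 1, 5 and 3 counts in WT (log2 fold change 3.33 ± 0.61, edgeR adjusted p = 0.0146), and an antisense gene overlaps it. BDNF passed the filter on low counts only through the libraries labelled KO, so its call supports nothing further. MAGED1, an X-linked adaptor of the p75 receptor, had 2270, 3864 and 3567 counts in the libraries labelled KO, against 5050, 5407 and 5548 counts in WT (-0.68 ± 0.16, edgeR adjusted p = 0.0297). Each lay on its side in 3 of 3 libraries labelled KO. The groups did not overlap in 47.6% of all genes tested. The BDNF call was lost without any 1 WT library (edgeR adjusted p from 0.0530 to 0.0813), and so was the MAGED1 call (edgeR adjusted p from 0.118 to 0.138), which was also lost without replicate 3 labelled KO (edgeR adjusted p = 0.0819). The list's median log2 fold change was 0.39, and without replicate 1 labelled KO 4 genes were higher and 2 lower, when 44.0% of all genes were called.

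Of 29 transcription elongation genes, the family of TFIIS to which TCEAL genes owe their name and its partners, 24 were tested and 0 passed edgeR. Over all genes tested, 15.1% were called. An unadjusted edgeR p under 0.05 was reached by 1 higher and 2 lower genes; with adjusted p-values DESeq2 called 1, lower, and limma-voom 0. The median log2 fold change was -0.067. Without replicate 1 labelled KO, edgeR called 2 higher and 4 lower, when 44.0% of all genes were called.

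By Euclidean distance over the log2 CPM of the 6 libraries, the 5 genes nearest to BEX1 were EPDR1, INA, PNPLA4, SLC7A3 and an identifier without a symbol in the gene table, ENSG00000249568, at distances from 1.36 to 1.87. EPDR1, a lysosomal glycoprotein gene, had 439, 590 and 672 counts in the libraries labelled KO, and INA, a neuronal intermediate filament gene, had 459, 393 and 411; both had 0 counts in each WT library. BEX1 differed from them in its replicate 1, which was lower relative to replicates 2 and 3. For the other members the nearest gene was taken on log2 CPM centred on each gene's mean. The gene nearest to BEX5 was CSAG2, an X-linked cancer-testis gene with a near-identical copy, at 0, 0 and 0 counts in the libraries labelled KO and 29, 42 and 33 in WT (distance 0.563). The gene nearest to TCEAL9 was LRRC47 (distance 0.062), at 791, 1007 and 1010 counts in the libraries labelled KO and 1251, 1442 and 1382 in WT. The nearest genes of BEX2, BEX3 and BEX4 were MKNK2, TMEM14C and BMF, and those of TCEAL1, TCEAL3, TCEAL4 and TCEAL8 were TUBA1A, GNG3, KHSRP and RHOBTB1, each on another chromosome than X.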

How the data were processed

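HTSeq 0.12.4 and HISAT2 2.2.1 are named in the submitters' processing notes for GRCh38, as are bedtools 2.30.0, SAMtools 1.3.1, DESeq2 and FastQC 0.11.9; order, counting options and strand setting are not given in any source used here. Deposited gene tables hold whole-number read counts per gene and library, not normalised; the deposited coverage of the mitochondrial chromosome was not used. Reads outside genes (8.75% to 15.9% per library) and ambiguous reads (9.74% to 12.5%) stayed out of library sizes.

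Symbols came from a gene name table and positions and promoter windows from RefSeq GRCh38.p14; 86.4% of tested genes had a position. The test was edgeR 4.0.16's quasi-likelihood F test under R 4.3.3 (TMM scaling, filterByExpr, group without covariates, Benjamini-Hochberg adjustment over 17452 genes at 0.05). After ±, levels carry SD and log2 fold changes (labelled KO over WT) carry standard errors. Log2 CPM used a prior count of 2. A group with 0 counts was set to 3 counts over the group; intervals are exact 95% and cover counting error only. Replicate libraries differed by more than counting noise (chi-square per degree of freedom 2.56 or more), so none is a repeat deposit of another; this does not show separate cultures. The members and lists were chosen with earlier results of these data known. Genes named are all members, called members of lists (the 3 of largest change per direction where more than 6 were called), the 4 other TCEAL genes, the nearest genes by distance and C17orf80; ARMCX1, ARMCX5, ARMCX6, GPRASP1, GPRASP2, GPRASP3, the markers and the other palindrome holders were named after their values were seen. Alternatives were relative log expression scaling, DESeq2 1.42.0, limma-voom (limma 3.58.1), leaving out each library, a replicate block, 10 counts in 3 libraries and no filter. A nephric marker and the sum that holds it are not reported here. The edgeR fit was checked on simulated counts.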

Additional observations from a re-analysis of the deposited data

How the results depend on the processing

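The 12 alternatives turned the direction of none of the called members, called genes named from the gene lists and C17orf80; the marker genes and the rest of the table were not followed gene by gene. Genes called over the whole table numbered 2641 with edgeR and 4206 with DESeq2, and 644 to 7977 with 1 library left out. The members' median log2 fold change of -0.027 ranged from -0.18 to 0.18 with 1 library left out and lay between -0.086 and -0.019 under the other settings. Called GPRASP and ARMCX genes numbered 1 to 3, neighbours within 1 Mb 0 to 6, p75 pathway genes 0 to 6, elongation genes 0 to 6 and X-linked genes 35 to 257 with 1 library left out, and 0 of the other TCEAL genes was called. DESeq2 called 4 neighbours, 1 elongation gene and 134 X-linked genes, and limma-voom called 1 neighbour. With the replicate number as a block, edgeR called 969 genes, of which 45 were X-linked. It called 0 GPRASP and ARMCX genes, 0 neighbours and 0 p75 pathway genes. The cause of these shifts was not tested. The labels do not state that the numbers pair libraries. Same-numbered libraries deviated with r of -0.058, -0.029 and 0.0022, and differently numbered ones with r of -0.062 to 0.059. With 3 libraries per group and replicate 1 labelled KO apart, these values cannot settle whether the numbers pair libraries. BEX1 and BEX5 kept their direction under all 12 alternatives, but with almost no counts in 1 group no other outcome was possible. The same holds for the other called genes with 0 or nearly 0 counts in 1 group. BEX2 changed sign in 7 alternatives, TCEAL1 in 2 and BEX3, BEX4 and TCEAL4 in 1 each. Depth limits statements on TCEAL7, ARMCX1 and GPRASP3, which had under 10 counts per group.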
